A study of Danio rerio with 4 samples.

Results

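The genes described here are the nuclear genes of oxidative phosphorylation in radial glia of the adult zebrafish telencephalon. They were chosen by symbol: every gene whose name begins with nduf followed by a, b, c, s or v, with uqcr, with sdh followed by a to d, with cox4 to cox8, or with atp5. This gave 101 of 24435 gene symbols, of which 47 belong by name to complex I, 9 to complex II, 8 to complex III, 18 to complex IV and 19 to complex V. By name, 88 encode subunits, 11 are assembly factors (ndufaf and sdhaf genes) and 2 are inhibitors of the ATP synthase (atp5if1a and atp5if1b). The rule works on letters alone, so it leaves out cyc1, which encodes cytochrome c1 of complex III, and 4 genes written in capitals in the deposited tables, COX5B, COX7A2, NDUFB1 and NDUFAF8.

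Oxidative phosphorylation takes place at the inner mitochondrial membrane. Complexes I and II pass electrons from NADH and succinate to ubiquinone, complex III passes them on to cytochrome c, complex IV passes them to oxygen, and complex V uses the proton gradient so built to make ATP. Most subunits are encoded in the nucleus, while the mitochondrial genome encodes some subunits of complexes I, III, IV and V and none of complex II. Several subunits come in tissue isoforms: in mammals COX7A1, COX6A2 and COX8B are the heart and skeletal muscle forms, COX4I2 the form of lung and low oxygen, and COX6B2 the form of testis. In the adult zebrafish brain, radial glia are the cells that divide and make neurons after a lesion.

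Single-cell RNA sequencing had been done on dTomato-positive cells sorted from the telencephalon of fish 3 to 7 months old. There were 4 libraries with 1 library per group, each from 7 pooled telencephalons. The 3dpl/MTZ library was injured, at 3 days after the lesion, and came from fish carrying Tg[GFAP:dTomato]nns17Tg and Tg[mpeg1:NTR-EYFP]w202 and given MTZ. Metronidazole (MTZ) is turned into a toxin by nitroreductase, the enzyme placed here under the mpeg1 promoter of microglia and macrophages. The 3dpl library was injured in the same way in fish with Tg[GFAP:dTomato]nns17Tg alone. The Non-injured/MTZ library came from fish with both transgenes and MTZ, and the Non-injured library from fish with Tg[GFAP:dTomato]nns17Tg alone. MTZ, strain and pool of fish therefore cannot be told apart. The treatment label names a stab lesion for every library, against the titles of the uninjured ones, and the groups were taken from the titles.

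Values were computed in fabp7a cells, those in which fabp7a, a radial glia gene, took at least 0.5% of the UMIs (unique molecular identifiers, each standing for a captured transcript). The 3dpl/MTZ, 3dpl, Non-injured/MTZ and Non-injured libraries held 1278, 950, 1240 and 679 such cells, with 5889512, 4409774, 3445996 and 2697410 UMIs. The median fabp7a cell had 4122, 3893.5, 2736.5 and 3382 UMIs in the same order. The Non-injured/MTZ library stood apart in depth: 28.9% of its fabp7a cells had under 1000 UMIs, against 4 to 4.86% in the other libraries. All 11 radial glia markers among the features were detected in every library. Microglia and macrophage markers summed to 28.4, 63.9, 150 and 7.04 CPM (UMIs of a gene scaled to a common total of UMIs per library) in the same order, with 11 of 11 markers detected in Non-injured/MTZ and 6 or 7 of 11 elsewhere. mpeg1.1 was at 0 in 3 libraries and at 2.61 CPM in Non-injured/MTZ. Markers of mural or muscle cells summed to 1060 to 1275 CPM in every library, with 9, 7, 8 and 7 of 10 detected in the same order. Among them mylpfa was at 0 in every library and myh11a in all but 3dpl/MTZ. Which of these markers made up the sum is not given here. Pairs of libraries shared 0 to 6 barcodes.

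With 1 library per group there is no replicate check and no test over samples. Intervals are 95% intervals of counting error only, and a difference past them may still be a difference between pools of fish. A member was compared where it had at least 100 UMIs over the libraries compared, and it was called higher or lower past 1.5-fold (0.585 on the log2 scale). The same rule gave the shares over all genes, which were not matched to the members in UMIs per gene. Counting error is wider for genes with few UMIs. Of the 101 members, 88 were compared everywhere and 11 nowhere: cox4i1l, cox6a2, ndufa4, ndufa4l2a, ndufa4l2b, ndufa9b, ndufaf4, ndufaf7, ndufs1, sdhaf1 and sdhda. Of these, ndufa4l2b and ndufa9b had 0 UMIs in all libraries. A lower level in summed cells can mean less RNA per cell or a smaller share of cells with it, and these were not separated unless a share of cells is given. Where 2 copies of a gene share sequence, how their reads were divided is not given in the sources used here.

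Summed over the 101 members, nuclear oxidative phosphorylation RNA took 2.40% of the UMIs in 3dpl/MTZ, 2.57% in 3dpl, 3.00% in Non-injured/MTZ and 2.60% in Non-injured. The Non-injured/MTZ library had the highest share, and 3dpl and Non-injured were nearly alike. The log2 ratio of the sum was -0.02 (-0.03 to -0.002) for 3dpl over Non-injured and -0.32 (-0.33 to -0.31) for 3dpl/MTZ over Non-injured/MTZ. It was -0.10 (-0.11 to -0.09) for 3dpl/MTZ over 3dpl and 0.21 (0.19 to 0.22) for Non-injured/MTZ over Non-injured. The 13 mitochondrially encoded subunits (mt- genes) took 3.36, 2.0, 1.71 and 2.11% of the UMIs in 3dpl/MTZ, 3dpl, Non-injured/MTZ and Non-injured. The UMIs of mt- genes per UMI of the nuclear members were thus 1.40 in 3dpl/MTZ, 0.778 in 3dpl, 0.568 in Non-injured/MTZ and 0.813 in Non-injured. Over all fabp7a cells, the library with the lowest nuclear share had the highest mitochondrial share, and the reverse. This did not hold in cells of 1000 to under 3000 UMIs. There 3dpl/MTZ was highest in nuclear (41145 CPM) and mt- RNA (78662 CPM), and Non-injured/MTZ lowest in both (29943 and 17623 CPM).

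**Figure D1:**
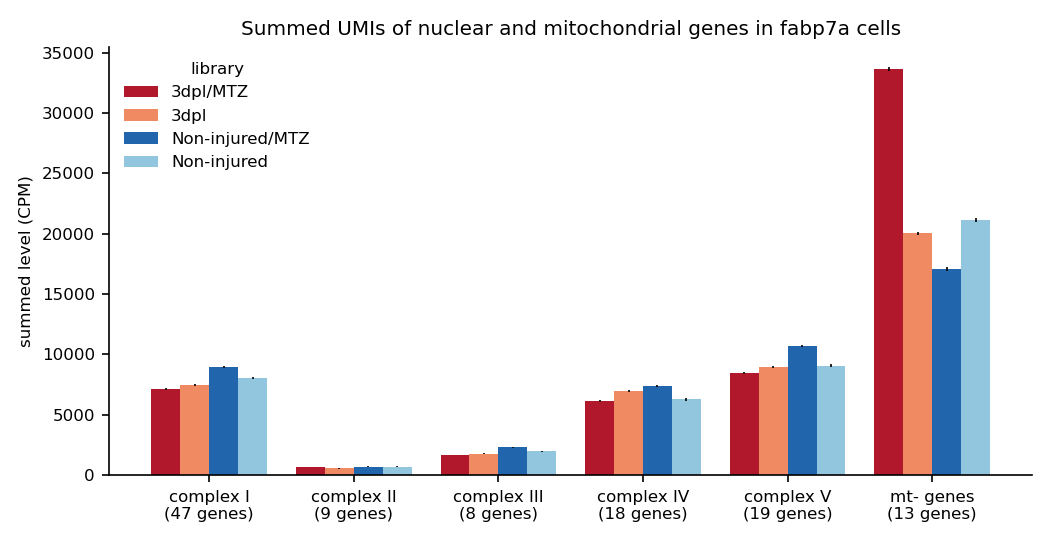
Summed level (CPM) of the nuclear members of each complex and of the mt- genes in fabp7a cells of the 4 libraries; bars are 1 library each and error bars are 95% Poisson intervals. Complexes I, III, IV and V are highest in Non-injured/MTZ, complex II is lowest in 3dpl, and the mt- genes are highest in 3dpl/MTZ.

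Injury without MTZ was read by setting 3dpl against Non-injured. Of 88 members compared, none was higher past 1.5-fold and 5 were lower, where 9.87% of all 6567 genes compared were higher and 15.6% lower. The median member had a log2 ratio of -0.12, and the median over all genes was -0.16. Below 0 were 62 of 88 members and above 0 were 26, beside 64.9% and 35.1% of all genes. The sign split and the median were thus near those of all genes, while the shares past 1.5-fold were below them in both directions. As all genes were not matched to the members in UMIs per gene, the part of counting error in those shares was not tested. Scaling by trimmed means (TMM), which centres on the bulk of genes, adds 0.16 to each log2 ratio here and turns the ratio of the sum to 0.14. It leaves 1 member higher and 1 lower, and the shares over all genes were not computed on that scale.

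The complexes differed among themselves in that comparison. Complex IV summed to 6991 CPM in 3dpl and 6266 CPM in Non-injured, a log2 ratio of 0.16 (0.13 to 0.19), and 10 of its 14 members compared were above 0. Complex II summed to 553 CPM in 3dpl and 681 CPM in Non-injured, a log2 ratio of -0.30 (-0.39 to -0.21). All 7 of its members compared were below 0 on the CPM scale. Under TMM scaling, which adds 0.16, the complex II sum was at -0.14. On the CPM scale sdhaf2 (-0.02), sdhc (-0.08) and sdhaf4 (-0.13) were nearer to 0 than that shift. Complex I stood at 7494 and 8038 CPM (-0.10), complex III at 1769 and 1953 CPM (-0.14) and complex V at 8914 and 9056 CPM (-0.02), in 3dpl and Non-injured, and these 3 were at 0.06, 0.02 and 0.14 under TMM scaling. Complex IV was thus the only complex above 0 on the CPM scale. It was also above 0 under each of the 12 alternatives of scaling, filters, weights, cell makeup and member list (0.12 to 0.32). The alternative without assembly factors cannot change this sum, as complex IV has none under the symbol rule.

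Within complex I the core subunits, which carry the flavin and iron-sulfur centres, were set apart from the accessory ones. The 7 core genes summed to 605 CPM in 3dpl and 754 CPM in Non-injured, a log2 ratio of -0.32 (-0.40 to -0.23). The 33 other subunits summed to 6738 and 7095 CPM, a log2 ratio of -0.07 (-0.10 to -0.05). That sum includes ndufa4l, at 948 CPM in 3dpl and 736 CPM in Non-injured (0.36). Its place in complex I rests on its name, as described further on, and the sum without it was not computed. Among core genes, ndufv2 had a log2 ratio of -0.50, ndufv1, which binds NADH, -0.46, ndufs3 -0.30, ndufs7 -0.29 and ndufs8a 0.21. All of these were within 1.5-fold. The subunits of complex II read in the same way: sdhdb -0.51, sdha, the flavoprotein that oxidises succinate, -0.50, sdhb -0.38 and sdhc -0.08. In complex V, atp5f1b, the catalytic beta subunit, had 501 CPM in 3dpl and 734 CPM in Non-injured, a log2 ratio of -0.55 (-0.64 to -0.46). This was the lowest ratio of the 19 members of complex V compared, of which 10 were above 0 and 9 below. The complex V sum was at -0.02.

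The 5 members lower in 3dpl past 1.5-fold were 3 assembly factors and 2 subunits. cox8b, a small subunit of complex IV, had 12.0 CPM in 3dpl and 27.8 CPM in Non-injured, a log2 ratio of -1.21 (-1.75 to -0.68). sdhaf3, which helps mature the iron-sulfur subunit of complex II, had 11.6 and 18.9 CPM (-0.71, -1.30 to -0.12). ndufaf5 had 21.1 and 32.6 CPM (-0.63), and ndufaf1 15.9 and 24.1 CPM (-0.60), both assembly factors of complex I. uqcrfs1, the Rieske iron-sulfur protein of complex III, had 171 CPM in 3dpl and 262 CPM in Non-injured (-0.61, -0.76 to -0.46). All 5 came within 1.5-fold under at least 1 alternative, and under TMM scaling cox8b alone stayed past it. On the other side, the highest log2 ratio among members compared was 0.44 (0.36 to 0.53) for cox6b2, at 840 CPM in 3dpl and 617 CPM in Non-injured, which is within 1.5-fold.

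Injury with MTZ, 3dpl/MTZ against Non-injured/MTZ, gave lower levels across the complexes. Of 90 members compared, 79 were below 0 and 11 above, where 48.3% of all 7327 genes were below and 51.7% above. Past 1.5-fold, 10 were lower and 1 higher, where 9.4% of all genes were lower and 12.4% higher. The 10 of 90 is close to that background, which was not matched in UMIs per gene. With a stricter cell filter (at least 800 genes, at most 10% mitochondrial UMIs), 26 were lower, and with each cell weighted equally 3 were lower and 2 higher. The shares over all genes were not computed under these alternatives, so these counts have no background to be read against. The median member had a log2 ratio of -0.30 and the median over all genes was 0.02.

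By complex, 3dpl/MTZ and Non-injured/MTZ stood at 7123 and 8966 CPM for complex I (-0.33), 1661 and 2284 CPM for complex III (-0.46), 6143 and 7360 CPM for complex IV (-0.26) and 8446 and 10694 CPM for complex V (-0.34). Complex II was at 656 and 696 CPM, a log2 ratio of -0.08 (-0.16 to -0.01), the smallest of the 5. With each cell weighted equally the ratios were near 0 in complexes I (-0.003) and V (-0.007), above 0 in complexes II (0.13) and IV (0.08) and -0.20 in complex III. All 8 members of complex III, 37 of 40 of complex I and 18 of 19 of complex V were below 0. Only ndufa4l, ndufa9a and ndufv3 of complex I had log2 ratios above 0, at 0.48, 0.06 and 0.001.

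Among the members lower past 1.5-fold, 3 are accessory subunits of complex I. ndufa7 had 75.05 CPM in 3dpl/MTZ and 156 CPM in Non-injured/MTZ, a log2 ratio of -1.05 (-1.24 to -0.87). ndufa5 had 274 and 456 CPM (-0.73), and ndufa2 141 and 217 CPM (-0.62). Of the small subunits of complex III, uqcrb had 344 and 529 CPM (-0.62) and uqcrq 306 and 463 CPM (-0.60). In complex IV, cox7c had 817 CPM in 3dpl/MTZ and 1381 CPM in Non-injured/MTZ (-0.76, -0.82 to -0.70), and cox8b 9.34 and 17.7 CPM (-0.92, -1.48 to -0.37). One cell held 18.2% of the cox8b UMIs of 3dpl/MTZ, and without the cell of each library richest in the gene its ratio was -1.14. Of 15 alternatives, uqcrq came within 1.5-fold under 6, ndufa2 under 5, uqcrb under 4, cox7c and ndufa5 under 2, ndufa7 under 1 and cox8b under none. The alternative without assembly factors is among the 15 but cannot change the ratio of a single member.

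In complex V, atp5if1b, an inhibitor that blocks the synthase from running in reverse, had 232 CPM in 3dpl/MTZ and 429 CPM in Non-injured/MTZ (-0.89, -0.997 to -0.783). atp5mea, a copy of subunit e, had 195 and 295 CPM (-0.60, -0.72 to -0.47). They came within 1.5-fold under 2 and 5 of the alternatives. The 1 higher member, cox6b1 of complex IV, had 23.9 CPM in 3dpl/MTZ and 16.0 CPM in Non-injured/MTZ (0.58, 0.13 to 1.06). One cell held 19.1% of its UMIs in 3dpl/MTZ, and without that cell and its counterpart the ratio was 0.33 (-0.15 to 0.83), within 1.5-fold. The last of the 10 lower members, cox7a1, is described further on.

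The comparisons of injury without and with MTZ share no library, and their members were set side by side. Of 88 members compared in both, 5 were lower without MTZ and 9 with it, and cox8b was lower in both. None was higher in either and none went opposite ways past 1.5-fold. cox8b is thus 20.0% of the members called lower without MTZ and 11.1% of those called lower with it, where over all 6430 genes compared in both the shared genes were 21.7% and 40.9%. Without MTZ the 9 members called lower with it were at -1.21 (cox8b), -0.36 (ndufa2), -0.36 (atp5if1b), -0.30 (atp5mea), -0.24 (ndufa7), -0.13 (ndufa5), -0.10 (uqcrb), 0.04 (cox7c) and 0.14 (uqcrq). No test of the difference between the comparisons could be made with 1 library per group.

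**Figure D2:**
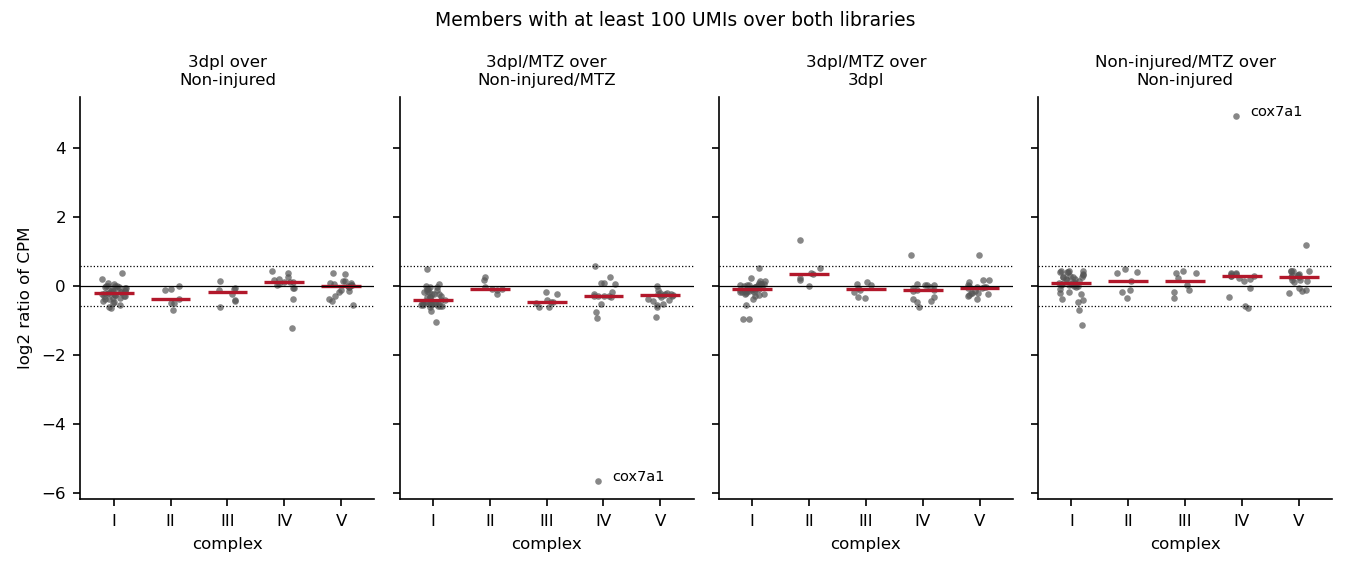
Log2 ratio of CPM of each member with at least 100 UMIs over both libraries, by complex, in the 4 comparisons; points are genes, red lines are medians and dotted lines mark 1.5-fold. Most members lie within the dotted lines, the medians of complexes I and III are lowest for 3dpl/MTZ over Non-injured/MTZ, and cox7a1 lies far from the rest in both comparisons that include Non-injured/MTZ.

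MTZ in injured fish, 3dpl/MTZ against 3dpl, gave 3 of 89 members higher and 3 lower, where 7.4% of all 7658 genes were higher and 7.23% lower. The median member had a log2 ratio of -0.05, and that over all genes was 0.06. Below 0 were 56 members and above 0 were 33, beside 42.4% and 57.6% of all genes. Complex II stood apart in sign, with 656 CPM in 3dpl/MTZ and 553 CPM in 3dpl, a log2 ratio of 0.25 (0.17 to 0.32), and 6 of its 7 members compared were above 0. It stayed above 0 under each of the same 12 alternatives (0.14 to 0.29). The 3dpl library, which had the lowest complex II sum, is shared with the comparison of 3dpl over Non-injured. The other complexes were below 0, from -0.19 in complex IV to -0.07 in complex I.

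sdhaf3 was among the higher members, with 29.4 CPM in 3dpl/MTZ and 11.6 CPM in 3dpl (1.34, 0.89 to 1.82). The same 3dpl value gave its lower call in 3dpl over Non-injured. atp5mea had 195 and 105 CPM (0.89, 0.74 to 1.05), and cox6b1 23.9 and 12.9 CPM (0.89, 0.44 to 1.36). Without the richest cell of each library cox6b1 had a log2 ratio of 0.68. The lower members were ndufb11, an accessory subunit of the membrane arm of complex I, with 26.8 CPM in 3dpl/MTZ and 52.2 CPM in 3dpl (-0.96, -1.26 to -0.66), the complex I assembly factor ndufaf6 with 17.1 and 33.1 CPM (-0.95, -1.33 to -0.57), and cox6c with 474 and 725 CPM (-0.61, -0.69 to -0.54).

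MTZ in uninjured fish, Non-injured/MTZ against Non-injured, gave 64 of 89 members above 0 and 25 below, where 41.9% of all 6055 genes were above and 58.1% below. Past 1.5-fold, 2 were higher and 4 lower, where 5.68% of all genes were higher and 12.1% lower. Under TMM scaling 2 members were lower, and the share over all genes was not computed on that scale. The median member had a log2 ratio of 0.18, against -0.08 over all genes. Complexes V (0.24), IV (0.23), III (0.23) and I (0.16) were above 0, and complex II had 696 CPM in Non-injured/MTZ and 681 CPM in Non-injured, a log2 ratio of 0.03 (-0.06 to 0.12). With each cell weighted equally all 5 were below 0, from -0.19 in complex II to -0.02 in complex III. The core genes of complex I did not share in this: they summed to 751 CPM in Non-injured/MTZ and 754 CPM in Non-injured (-0.01, -0.09 to 0.08), beside 0.18 (0.15 to 0.21) for the other 33 subunits.

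atp5mea had 295 CPM in Non-injured/MTZ and 129 CPM in Non-injured, a log2 ratio of 1.19 (1.01 to 1.37). ndufb11 had 35.4 and 77.1 CPM (-1.12, -1.46 to -0.79) and ndufaf6 20.3 and 33.0 CPM (-0.70, -1.17 to -0.23). cox8b had 17.7 and 27.8 CPM (-0.65, -1.16 to -0.14), and cox5b2, a copy of subunit Vb of complex IV, 16.0 and 24.1 CPM (-0.59, -1.14 to -0.05). The comparisons of MTZ with and without injury share no library. Of 88 members compared in both, atp5mea was higher in both, and ndufb11 and ndufaf6 lower in both, which is 66.7% of the 3 lower in injured fish and 50% of the 4 lower in uninjured fish. Over all 5993 genes compared in both, the genes shared were 33.0% and 13.6% of those lower and 18.8% and 24.1% of those higher. The 15 alternatives include that without assembly factors, which cannot change the ratio of a single member. In injured fish sdhaf3, atp5mea and ndufaf6 stayed past 1.5-fold under each of the 15, while ndufb11 and cox6b1 came within it under 1 and cox6c under 3. In uninjured fish atp5mea and ndufb11 stayed past it, while cox8b came within it under 5 (up to 0.08 in cells of 6000 UMIs or more, with the sign turned in 2), cox5b2 under 4 and ndufaf6 under 2 (up to -0.04). For ndufb11 and ndufaf6 the 2 libraries with MTZ were both below the 2 without it, and for atp5mea both above. As MTZ came with another strain and other fish, these cannot be told apart.

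cox7a1 had the widest range of the members that could be compared. It had 4 UMIs in 3dpl/MTZ, 9 in 3dpl, 117 in Non-injured/MTZ and 3 in Non-injured, or 0.679, 2.04, 34.0 and 1.11 CPM. The Non-injured/MTZ library was high and the other 3 were low. The log2 ratio was -5.64 (-7.54 to -4.25) for 3dpl/MTZ over Non-injured/MTZ and 4.93 (3.35 to 7.23) for Non-injured/MTZ over Non-injured. Each rests on 3 or 4 UMIs on the low side. cox7a1 reached the minimum of 100 UMIs only through Non-injured/MTZ, where it is high, so its calls support nothing beyond the level in that library. In the other comparisons cox7a1 had too few UMIs, 12 and 13, to be compared.

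The cox7a1 UMIs of Non-injured/MTZ were spread over many cells. A UMI was seen in 4 of 1278, 7 of 950, 100 of 1240 and 2 of 679 fabp7a cells of 3dpl/MTZ, 3dpl, Non-injured/MTZ and Non-injured, or 0.313, 0.737, 8.06 and 0.295%. The exact interval in Non-injured/MTZ was 6.61 to 9.72%. Of those 100 cells 86 had 1 UMI, and the richest cell held 4, or 3.42% of them. After each cell was thinned to 1000 UMIs the shares were 0.082, 0.11, 3.06 and 0.155%, with 59, 38, 358 and 33 shallower cells left out, and those outside Non-injured/MTZ then rest on 1 cell each.

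The share of cells with cox7a1 in Non-injured/MTZ was higher in deeper cells: 1.96% under 1000 UMIs, 5.64% from 1000 to under 3000, 12.6% from 3000 to under 6000 and 19.4% from 6000 up (12 of 62 cells, 10.4 to 31.4%). In the other libraries it was at most 1.22% in every bin. In cells of 3000 to under 6000 UMIs it was 0 of 506 in 3dpl/MTZ, which allows up to 0.593%, 2 of 337 in 3dpl, 63 of 501 in Non-injured/MTZ and 1 of 252 in Non-injured. The 117 cox7a1 UMIs of Non-injured/MTZ lay in the 4 bins as 8, 19, 78 and 12, with rising depth.

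**Figure D3:**
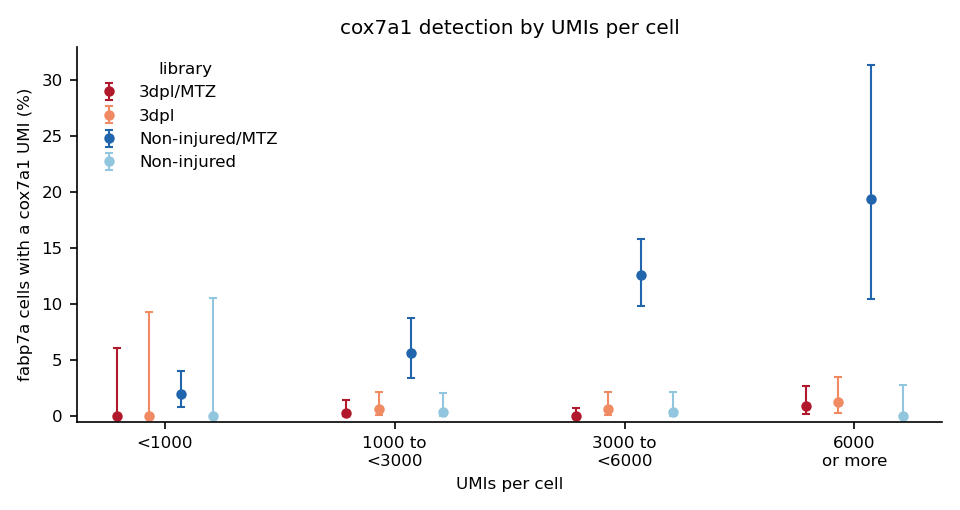
Share of fabp7a cells with a cox7a1 UMI (%) by UMIs per cell in the 4 libraries; points are shares and bars exact 95% Clopper-Pearson intervals. Non-injured/MTZ reaches 12.6% and 19.4% in the bins of deeper cells, while the other libraries stay at or under 1.22%.

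The level of cox7a1 was also read in cells outside the fabp7a gate. A UMI was seen in 5 of 326 such cells in 3dpl/MTZ, 1 of 118 in 3dpl, 0 of 93 in Non-injured/MTZ and 0 of 48 in Non-injured, where a count of 0 allows up to 3.23% in Non-injured/MTZ and 6.25% in Non-injured. Their median depth was 3010, 6119.5, 714 and 3268.5 UMIs. In 3dpl/MTZ the cells outside the gate held 8 cox7a1 UMIs, 3 of them in 1 cell. That was 5.52 CPM (2.38 to 10.9), above the 0.679 CPM (4 UMIs) of its fabp7a cells. In 3dpl the cells outside were at 1.17 CPM (0.03 to 6.53), against 2.04 CPM in its fabp7a cells. The 93 cells of Non-injured/MTZ were shallow, and fabp7a cells under 1000 UMIs in that library were at 1.96%, below what 0 of 93 allows, so the 0 does not set these cells apart from fabp7a cells. Cells with microglia or macrophage markers numbered 32 in 3dpl/MTZ, 6 in 3dpl, 31 in Non-injured/MTZ and 1 in Non-injured. The 31 in Non-injured/MTZ had no cox7a1 UMI, which at their depth allows up to 84.6 CPM, above the level in fabp7a cells. In 3dpl/MTZ 2 of 32 such cells had a cox7a1 UMI, or 7.69 CPM (0.932 to 27.8), against 0.679 CPM in the fabp7a cells of that library. Microglia and macrophage markers in fabp7a cells were, like cox7a1, highest in Non-injured/MTZ. The part of microglia RNA in the cox7a1 level was not tested.

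The partner of cox7a1 in complex IV, cox7a2a, was within 1.5-fold in all comparisons, with 230, 253, 260 and 234 CPM in 3dpl/MTZ, 3dpl, Non-injured/MTZ and Non-injured. cox7a1 was 0.294, 0.799, 11.5 and 0.474% of the UMIs of the pair. The pair leaves out COX7A2, written in capitals, which had 687, 674, 539 and 419 UMIs in the same order, so the cox7a1 share would be smaller with it. Of the other isoforms known in mammals from muscle, cox6a2 had 4, 3, 0 and 0 UMIs, and cox8b was highest in Non-injured, at 4.91% of the UMIs of cox8b and cox8a, against 1.39% in 3dpl/MTZ, 1.84% in 3dpl and 2.75% in Non-injured/MTZ. The interval of cox8b in Non-injured, 3.88 to 6.11%, lay above those of the other 3 libraries.

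Other pairs of isoforms were read in the same way. Shares within a pair depend on how each 3' end was captured, so they are compared between libraries only. cox4i2, the isoform tied to low oxygen in mammals, was 53.7% of the UMIs of cox4i2 and cox4i1 in 3dpl/MTZ, 57.5% in 3dpl, 48.2% in Non-injured/MTZ and 58.6% in Non-injured. The low value in Non-injured/MTZ goes with both genes: cox4i2 had 640 CPM there and 796 CPM in Non-injured (-0.31), while cox4i1 had 687 and 562 CPM (0.29). With MTZ the share was lower by 3.85 percentage points in injured and by 10.4 in uninjured fish.

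For the inhibitors of complex V, atp5if1a was 50.0% of the pair in 3dpl/MTZ, 46.9% in 3dpl, 40.1% in Non-injured/MTZ and 38.4% in Non-injured. Both injured libraries were above both uninjured ones, and the intervals of injured and uninjured libraries did not overlap. Without MTZ, atp5if1b had 265 CPM in 3dpl and 341 CPM in Non-injured (-0.36), and atp5if1a 234 and 213 CPM (0.14). atp5mea was 23.6, 15.8, 28.2 and 18.8% of subunit e UMIs in 3dpl/MTZ, 3dpl, Non-injured/MTZ and Non-injured, higher in both libraries with MTZ, while its partner atp5meb was within 1.5-fold throughout. The pair cox5aa and cox5ab held its balance, with cox5aa at 50.5 to 52.0%.

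**Figure D4:**
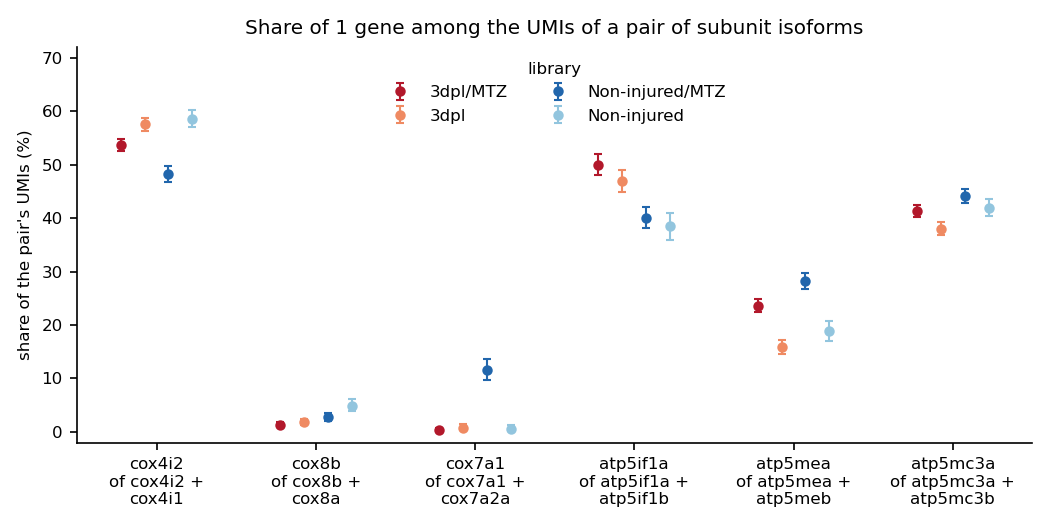
Share of the named gene among the UMIs of a pair of isoforms (%) in fabp7a cells of the 4 libraries; points are shares and bars exact 95% Clopper-Pearson intervals. The share of atp5if1a is higher in both injured libraries, that of atp5mea in both libraries with MTZ, and that of cox7a1 in Non-injured/MTZ.

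ndufa4l was the complex I name with most UMIs. It is related to NDUFA4, which in mammals was later placed with complex IV. By its name ndufa4l is counted in all the complex I sums given here. ndufa4l had 865 CPM in 3dpl/MTZ, 948 CPM in 3dpl, 621 CPM in Non-injured/MTZ and 736 CPM in Non-injured. Both injured libraries were above both uninjured ones, at log2 ratios of 0.48 (0.41 to 0.55) with MTZ and 0.36 (0.29 to 0.44) without, within 1.5-fold. ndufa4 itself had 25, 17, 4 and 2 UMIs in the same order, too few to compare. cox6b2 made up 97.1 to 98.9% of the UMIs of cox6b2 and cox6b1 in every library.

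Summed over all fabp7a cells, the mitochondrially encoded subunits did not follow the nuclear ones. In cells of 1000 to under 3000 UMIs the mt- and nuclear sums went the same way in most comparisons. Their log2 ratios were 0.61 and 0.27 for 3dpl over Non-injured, and 2.16 and 0.46 for 3dpl/MTZ over Non-injured/MTZ. They were -0.64 and -0.18 for Non-injured/MTZ over Non-injured, and 0.91 and 0.00441 for 3dpl/MTZ over 3dpl. In 3dpl/MTZ against Non-injured/MTZ, 7 of 13 mt- genes were higher past 1.5-fold, where 12.4% of all genes were higher. The sum of the 13 had a log2 ratio of 0.98 (0.97 to 0.99). By complex the ratio was 0.64 for the complex I genes and 0.67 for mt-cyb of complex III. It was 1.12 for the complex IV genes and 1.13 for the complex V genes. The sum of the nuclear members of each of these complexes was below 0 there, though not every member was. mt-co2 was furthest, with 7063 CPM in 3dpl/MTZ and 2466 CPM in Non-injured/MTZ (1.52). mt-atp8 (-0.52), mt-nd6 (-0.40) and mt-nd4l (-0.20) were below 0. In 3dpl/MTZ against 3dpl, 4 were higher and mt-nd6 was lower (-0.62), where 7.4% of all genes were higher and 7.23% lower. The sum there had a log2 ratio of 0.75. In 3dpl against Non-injured none passed 1.5-fold, where 9.87% of all genes were higher and 15.6% lower, and the sum was at -0.08. That sum depended on the UMIs per cell. It was at 0.87 under 1000 UMIs, 0.61 from 1000 to under 3000, -0.09 from 3000 to under 6000 and -0.47 from 6000 up. In Non-injured/MTZ against Non-injured, 2 of 13 were lower, mt-nd3 (-0.73) and mt-co2 (-0.62), where 12.1% of all genes were lower. The sum there was at -0.31. The median fabp7a cell had 2.90, 1.88, 1.65 and 1.61% mitochondrial UMIs in 3dpl/MTZ, 3dpl, Non-injured/MTZ and Non-injured, a measure also used to judge cell quality. Its part in these ratios was not tested.

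The ratio of the nuclear sum depended on the UMIs per cell. In cells of 3000 to under 6000 UMIs the sum was 21826, 24166, 30824 and 25306 CPM in 3dpl/MTZ, 3dpl, Non-injured/MTZ and Non-injured, and in cells of 6000 UMIs or more it was 20904, 22194, 30891 and 22722 CPM. In cells of 1000 to under 3000 UMIs it was 41145, 41020, 29943 and 33963 CPM. Non-injured/MTZ was thus highest among the deeper cells and lowest among these shallower ones. The log2 ratio of 3dpl/MTZ over Non-injured/MTZ was 0.46 from 1000 to under 3000 UMIs, -0.50 from 3000 to under 6000 and -0.56 from 6000 up. That of Non-injured/MTZ over Non-injured was -0.18, 0.28 and 0.44 in the same bins, and that of 3dpl over Non-injured 0.27, -0.07 and -0.03.

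With each cell given the same weight, the log2 ratio of 3dpl/MTZ over Non-injured/MTZ was 0.00498. In the shallower bin, from 1000 to under 3000 UMIs, uqcrb (0.21), uqcrq (0.17), atp5mea (0.13), ndufa2 (0.12), cox7c (0.11) and ndufa7 (0.03) had log2 ratios above 0 for 3dpl/MTZ over Non-injured/MTZ, and cox8b (0.16) for 3dpl over Non-injured. The lower sum in 3dpl/MTZ is therefore a statement about cells with 3000 UMIs or more, which gave most of the UMIs. The shallower cells of the injured libraries also had more of other abundant RNAs: ribosomal protein genes summed to 203061 CPM in 3dpl/MTZ, 211822 CPM in 3dpl, 119247 CPM in Non-injured/MTZ and 102086 CPM in Non-injured from 1000 to under 3000 UMIs. Their part was not tested. Some results did hold in each bin from 1000 UMIs up. Complex IV was above 0 in 3dpl over Non-injured (0.48, 0.09 and 0.12 with rising depth), complex II was below 0 there (-0.15, -0.22 and -0.38), and complex II was above 0 in 3dpl/MTZ over 3dpl (0.07, 0.25 and 0.30). The first bins of both complex II results have intervals that include 0. Both complex II results use the same 3dpl library, which had the lowest complex II sum, so they are not independent of each other.

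**Figure D5:**
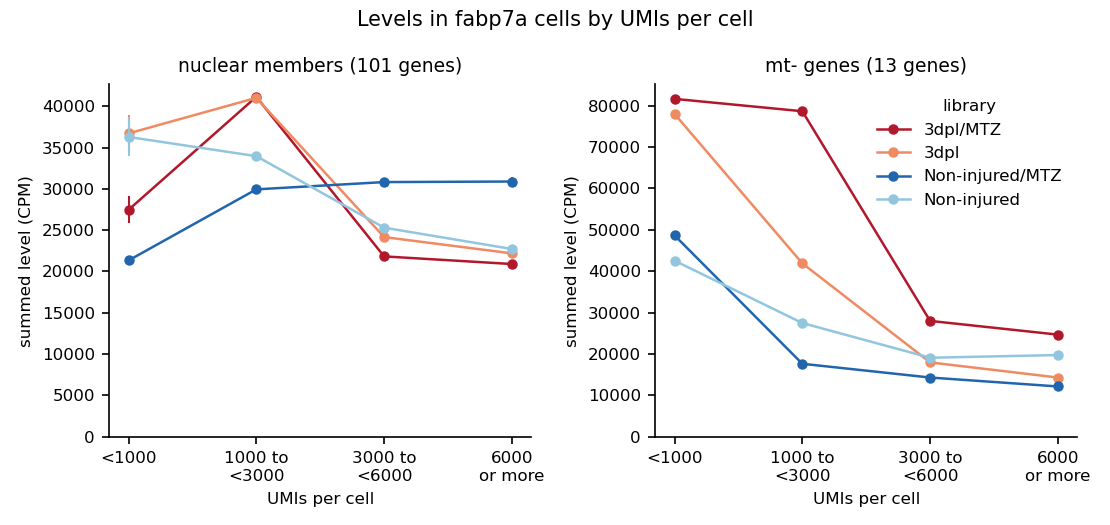
Summed level (CPM) of the 101 nuclear members (left, with 95% Poisson intervals) and of the 13 mt- genes (right) in fabp7a cells by UMIs per cell; each line is a library. The nuclear level falls with depth in 3 libraries from 1000 UMIs up and stays between 29943 and 30891 CPM in Non-injured/MTZ, while the mt- level is highest in 3dpl/MTZ in every bin.

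Single cells varied widely around these sums. The median fabp7a cell had 2.17% of its UMIs in nuclear members in 3dpl/MTZ, 2.43% in 3dpl, 2.67% in Non-injured/MTZ and 2.50% in Non-injured, and the upper quartile was 3.56, 4.05, 3.39 and 3.55%. Over cells of a library, the nuclear and mt- shares had a Pearson correlation of 0.65, 0.45, -0.21 and 0.34 in the same order, given as a description, since both are parts of the same total. The share correlated with the log of UMIs per cell at -0.39, -0.44, 0.27 and -0.36, so that Non-injured/MTZ again had the other sign.

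Fabp7a cells with UMIs of at least 5 interferon-induced genes numbered 130, 231, 6 and 10 in 3dpl/MTZ, 3dpl, Non-injured/MTZ and Non-injured. Nuclear members summed to 19733, 20842, 24694 and 24158 CPM in them. In fabp7a cells with neither such genes nor at least 2 S and G2/M genes the sum was 25824, 28582, 30177 and 26804 CPM. The interferon cells, which were mostly from injured fish and deep (median 5665.5 UMIs in 3dpl/MTZ and 5774 in 3dpl), were lower in every library. Without them the sum in 3dpl over Non-injured had a log2 ratio of 0.12 in place of -0.02. Cells with S and G2/M genes, 188, 136, 63 and 53 of them, had 20659, 25466, 28667 and 20144 CPM.

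Genes around the complexes were read from short lists. Of 16 genes of the tricarboxylic acid cycle and pyruvate entry, which feed complexes I and II, 15 could be compared between 3dpl and Non-injured. All 15 were below 0 on the CPM scale, with a median of -0.39, before the shift of 0.16 that TMM scaling adds. Over all genes 64.9% were below 0 there, and the median was -0.16. The 3 lower past 1.5-fold were fh, the fumarase (18.8 CPM in 3dpl and 31.5 CPM in Non-injured, -0.74), idh3g (-0.64) and sucla2 (-0.59), or 20% of the list, where 15.6% of all genes were lower. With MTZ the same list had a median of 0.01 in 3dpl/MTZ over Non-injured/MTZ, with suclg2 higher at 31.4 and 13.1 CPM (1.27) and none lower. That was 6.67% of the genes compared, where 12.4% of all genes were higher. suclg2 was also the 1 higher gene of 15 in 3dpl/MTZ over 3dpl, where none was lower, and dlst and sucla2 were the 2 lower genes of 14 in Non-injured/MTZ over Non-injured, where none was higher. These shares, 6.67% and 14.3%, were near those of all genes, 7.4% higher and 12.1% lower. In Non-injured/MTZ over Non-injured 12 of the 14 were below 0, with a median of -0.25. Over all genes 58.1% were below 0 there, and the median was -0.08. In 3dpl/MTZ over 3dpl 8 of the 15 were below 0, with a median of -0.05. Over all genes 42.4% were below 0 there, and the median was 0.06.

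Of 10 regulators of mitochondrial biogenesis, 6 could be compared for injury, and pprc1 and ppargc1b, both coactivators of the PGC-1 family, were higher in both comparisons. That was 33.3% of those compared, where 9.87% of all genes were higher without MTZ and 12.4% with it. Over all 6430 genes compared in both, the genes shared were 49.7% and 37.8% of those higher. pprc1 had 64.6 CPM in 3dpl and 27.8 CPM in Non-injured (1.22), and 84.4 CPM in 3dpl/MTZ and 36.0 CPM in Non-injured/MTZ (1.23). ppargc1b had log2 ratios of 0.67 and 0.75. Of the 6 regulators compared there, tfb2m was the 1 lower in 3dpl over Non-injured. That was 16.7%, near the 15.6% of all genes that were lower. None was lower in 3dpl/MTZ over Non-injured/MTZ, where 9.4% of all genes were lower. tfam, which packages mitochondrial DNA, was within 1.5-fold, from 40.1 to 43.6 CPM, and ppargc1a had no UMI in any library. ucp2, an uncoupling protein of the inner membrane, was lower in both MTZ comparisons, with 366 CPM in 3dpl/MTZ and 560 CPM in 3dpl (-0.62), and 357 CPM in Non-injured/MTZ and 597 CPM in Non-injured (-0.74). It was the 1 gene called there from a list of 12 carriers and electron transfer genes, of which 9 and 8 could be compared. That was 11.1% and 12.5% of those compared, where 7.23% and 12.1% of all genes were lower. Of 16 assembly genes of complexes III and IV, ttc19 was lower in 3dpl over Non-injured (-0.66), cox20 (0.78) and uqcc1 (0.66) were higher in 3dpl/MTZ over Non-injured/MTZ, cox17, a copper chaperone of complex IV, was higher in 3dpl/MTZ over 3dpl (0.62), and uqcc2 was higher in Non-injured/MTZ over Non-injured (0.68). These were 9.09% of the genes of that list compared, 16.7%, 8.33% and 10.0%, where 15.6% of all genes were lower in the first comparison and 12.4%, 7.4% and 5.68% higher in the others.

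The subunit genes missed by the symbol rule were read for completeness. COX5B had 512, 475, 624 and 544 CPM, COX7A2 117, 153, 156 and 155 CPM, and cyc1 170, 120, 153 and 153 CPM in 3dpl/MTZ, 3dpl, Non-injured/MTZ and Non-injured, and all were within 1.5-fold in every comparison. NDUFB1, an accessory subunit of complex I, was lower in 3dpl/MTZ, at 79.6 CPM, than in 3dpl, at 133 CPM (-0.74), and had 103 CPM in Non-injured/MTZ and 129 CPM in Non-injured (-0.32).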

How the data were processed

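The authors deposited 1 matrix of raw UMI counts (genes by barcodes) per library. These counts were made with Cell Ranger 3.1.0 and the GRCz11 genome per the submitters' processing notes, while the matrix headers name version 4.0.0. Per the labels' protocols, library preparation used the Chromium 3' chemistry v3 of 10x. The annotation release is not given in the sources used here. RefSeq gene tables were used for neighbouring genes only, so no coordinates or sequences are given.

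Symbols with over 1 identifier (518) were summed. Barcodes were kept from 300 genes up and with at most 25% of UMIs from mt- genes (74 failed), without the top 0.8% per 1000 barcodes by Scrublet score (51 cells, scanpy 1.11.5), which kept 4732 of 4857 barcodes, and 4147 fabp7a cells. UMIs were summed per library over fabp7a cells and divided by their total (CPM). Ratios carry exact conditional binomial intervals, shares exact Clopper-Pearson intervals and CPM exact Poisson intervals (95%, scipy 1.17.1). Zero shares were read against 3 counts. No p-value is given, as there was 1 library per group. The ratio code was tested on simulated data. Named genes were cox7a1, the 5 largest rises and falls past 1.5-fold per comparison, isoform pairs and inhibitors, the 3 members with most UMIs per complex, and core subunits of complexes I and II; others named, such as ndufa2, uqcrb and uqcrq, the mt- genes and the genes around the complexes, come from complete lists. Alternatives changed scaling, cell filters, cell makeup, weights and UMI minimum. The members and lists were chosen with earlier results of these data known. The value of 1 core subunit is not reported here.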

Additional observations from a re-analysis of the deposited data

How the results depend on the processing

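Sums are log2 ratios of the summed members and counts are members past 1.5-fold. The shares over all genes were not computed under these alternatives, so the counts have no background here. Under TMM scaling the sum was 0.14 in 3dpl over Non-injured (with 1 higher and 1 lower), -0.33 in 3dpl/MTZ over Non-injured/MTZ (0 higher), -0.16 in 3dpl/MTZ over 3dpl and 0.28 in Non-injured/MTZ over Non-injured (2 lower). With each cell weighted equally the sums were 0.053, 0.00498 (2 higher, 3 lower), -0.12 and -0.077 in the same order of comparisons. With a stricter cell filter (800 genes, 10% mitochondrial UMIs) they were -0.045 (3 lower), -0.48 (0 higher, 26 lower), -0.14 (5 lower) and 0.29 (2 lower). In cells of 2000 to 8000 UMIs they were -0.031, -0.36 and, for Non-injured/MTZ over Non-injured, 0.23 (2 lower). Without cells with interferon genes they were 0.12 (1 higher, 1 lower), -0.28 (6 lower) and -0.20 (5 lower) in the first 3 comparisons. Without cells with S and G2/M genes they were -0.053, -0.27 (6 lower), -0.044 (5 higher) and 0.17. With fabp7a at 0.25% the sums were -0.038 for 3dpl over Non-injured and -0.077 for 3dpl/MTZ over 3dpl, and at 1% they were -0.29 for 3dpl/MTZ over Non-injured/MTZ and 0.16 for Non-injured/MTZ over Non-injured. Without mt- genes in the total they were -0.30 for 3dpl/MTZ over Non-injured/MTZ and -0.078 for 3dpl/MTZ over 3dpl. Without assembly factors 2 members were lower in 3dpl over Non-injured.

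With a minimum of 1000 UMIs the counts were 1 lower in 3dpl over Non-injured, 0 higher in 3dpl/MTZ over Non-injured/MTZ, 1 higher and 1 lower in 3dpl/MTZ over 3dpl, and 1 higher and 0 lower in Non-injured/MTZ over Non-injured. With no minimum they were 5 higher and 8 lower, 5 higher, 7 higher and 6 lower, and 5 higher. Among alternatives chosen after seeing the data, cells of 1000 to under 3000 UMIs gave sums of 0.27 (7 higher, 0 lower), 0.46 (23 higher, 0 lower), 0.00441 (0 lower) and -0.18 (1 higher, 2 lower). Cells of 3000 to under 6000 gave -0.067, -0.50 (31 lower), -0.15 and 0.28 (1 lower), and cells of 6000 or more gave -0.034 (2 lower), -0.56 (0 higher, 42 lower), -0.086 (1 lower) and 0.44 (22 higher, 2 lower). The causes of these differences were not tested, apart from fewer genes or cells compared by construction. The log2 ratio of cox7a1, which reached the minimum of 100 UMIs only through Non-injured/MTZ, ran from 3.90 to 6.47 in Non-injured/MTZ over Non-injured and from -6.22 to -4.55 in 3dpl/MTZ over Non-injured/MTZ. It gave no value in cells of 3000 to under 6000 UMIs (none in 3dpl/MTZ) and of 6000 or more (none in Non-injured). Of the values of complex sums under the other alternatives, 150 stayed within the counting interval of the reported value and 90 did not. Of those of single named members, 1813 did and 205 did not, and none of the called ones changed sign outside the bins of UMIs per cell. The values without assembly factors are counted here, though they cannot differ for single members or for complexes III, IV and V. No paired analysis was possible because each group has 1 library.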

Other observations

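In the RefSeq gene table of zebrafish (assembly GRCz12tu), rnaset2l and chp2 are the genes on either side of cox7a1; they were looked at after the values of cox7a1 were seen. chp2 had 146 CPM in 3dpl/MTZ, 100.5 CPM in 3dpl, 146 CPM in Non-injured/MTZ and 107 CPM in Non-injured, within 1.5-fold in every comparison. rnaset2l had 5, 4, 6 and 1 UMIs, too few to compare.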
